A study of Mus musculus with 32 samples.

Results

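Interferon-stimulated genes are the genes that cells switch on when interferons, the cytokines of antiviral defence, reach their receptors. A set of 43 such genes was followed here in chromatin accessibility data from mouse LSK cells, the Lin- Sca-1+ Kit+ fraction of blood-forming stem and progenitor cells (called HSPC in the labels). A region of the deposited count tables was given to a member when its midpoint lay inside the gene's span on mouse build mm10, or within 50 kb of that span with no other gene nearer. All 43 genes were found in the annotation. In the table of the developmental series 40 of them had at least 1 region, 171 of the 99037 regions in all, and Ifit1, Isg15 and Cxcl10 had none. In the table of the cultured cells 41 had regions, 234 of 147852, and Ifit1 and Cxcl10 had none.

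The 32 libraries came from C57BL/6 mice and were made by ATAC-seq, which uses a transposase to insert adapters where DNA is open. The developmental series held 26 libraries of uncultured LSK cells: E12.5 PL (an abbreviation the labels do not spell out), E12.5 FL and E16.5 FL (fetal liver), Perinatal BM (bone marrow) and BM at 1, 3, 4, 6 and 8 weeks of age, with 3 libraries a group except 2 at 3 weeks. A library titled as 8w BM carries a stage label of E12.5, and was kept in the 8w group by its title. The other 6 libraries came from E12.5 FL cells kept for 2 h in medium that E16.5 hepatocytes had conditioned (co-SHI, 3 libraries), or without it in basic medium (SHI, 3 libraries). The labels give no knockout, transgene or other treatment for any group, and are silent on whether libraries with 1 group name had different donor mice. The p-values below therefore measure only the spread between these libraries, which may be technical.

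Type I interferons bind the receptor chains Ifnar1 and Ifnar2, whose kinases Jak1 and Tyk2 phosphorylate Stat2. Stat2 and Irf9 are subunits of the complex ISGF3, which binds the interferon-stimulated response element (ISRE) in the promoters of antiviral genes, while interferon gamma acts through GAS elements. In blood stem cells interferons are known to drive quiescent cells into cycle, and Ly6a, which encodes the Sca-1 antigen that defines the LSK gate, is itself an interferon-induced gene.

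The names of the cultured libraries could not be taken as settled. Each deposited peak list gives a fold enrichment per peak, as the authors' caller wrote it. Its log2 value was first freed, by a quadratic fit, of its dependence on the region's mean log2 level over the SHI and co-SHI columns. What remained was correlated with the deviation of each of these columns from that mean. All 3 lists named SHI resembled a co-SHI column most (r from 0.14 to 0.25), and all 3 lists named co-SHI resembled an SHI column most (r from 0.13 to 0.27). With the column of its own name each list had r between -0.16 and 0.00. These r concern differences between columns only, and do not say how well a list follows the counts as a whole. The deviations of the columns cancel in each region, which pulls the groups towards opposite signs. In the developmental series, treated in the same way over its own libraries, 20 of 26 lists matched a column of their own group best. Of the 21 member regions lower in co-SHI columns, described below, 14, 13 and 13 held a peak in the lists named SHI and 19, 12 and 18 in those named co-SHI. Over all 147852 regions these counts were 75142, 70640 and 70322 for SHI lists and 58173, 39004 and 70204 for co-SHI lists. The 21 were chosen by their difference between these columns, and no test was run on these counts. Every direction below is therefore given by the name of the count column. If the names of the peak lists were the right ones, "lower in co-SHI columns" would read "lower in basic medium".

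Levels are CPM, the counts in regions scaled to library size with edgeR's TMM factors, for a single region or summed over the regions of a gene. Gene sums and single regions were scaled separately. Total counts in regions ranged from 2845113 to 10167340 in the developmental libraries. In the cultured table they ranged from 7512258 to 11655458 in SHI columns and from 14280440 to 20092146 in co-SHI columns, so that depth did not overlap between these groups. The share of counts within 1 kb of a gene's ends was 35.5% to 35.9% in SHI columns and 36.0% to 36.9% in co-SHI columns. All differences below are log2 fold changes tested with edgeR's quasi-likelihood F test, and a gene or region is called when its Benjamini-Hochberg adjusted p over the whole table was under 0.05. In these bulk libraries fewer cells with an open region and a less open region per cell cannot be told apart.

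The 5 members shown first carry the ISRE letters near their start sites and were lower in co-SHI columns. Each stretch is the 160 bases before the start site, read 5′ to 3′ on the gene's strand (RefSeq, GRCm38.p6), and the capitals mark the ISRE letters searched for, which are GAAA, any 2 bases and GAAA again, on either strand (read on the other strand, they start with TTTC). They are shown because these promoters let a reader see the motif in members that fell, and were chosen after the values were seen.
Ifit3: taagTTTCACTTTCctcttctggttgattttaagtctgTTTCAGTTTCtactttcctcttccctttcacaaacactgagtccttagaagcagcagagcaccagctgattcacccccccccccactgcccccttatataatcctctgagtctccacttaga
Isg15: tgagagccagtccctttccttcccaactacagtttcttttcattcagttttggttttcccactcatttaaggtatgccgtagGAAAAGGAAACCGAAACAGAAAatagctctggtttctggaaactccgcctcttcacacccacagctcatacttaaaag
Rsad2: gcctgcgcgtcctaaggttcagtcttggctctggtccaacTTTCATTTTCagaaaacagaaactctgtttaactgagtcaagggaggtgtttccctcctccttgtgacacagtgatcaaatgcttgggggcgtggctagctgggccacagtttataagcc
Oas3: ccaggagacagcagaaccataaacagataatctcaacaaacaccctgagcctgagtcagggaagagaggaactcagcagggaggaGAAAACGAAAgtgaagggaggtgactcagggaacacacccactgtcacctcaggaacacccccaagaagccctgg
Oas1a: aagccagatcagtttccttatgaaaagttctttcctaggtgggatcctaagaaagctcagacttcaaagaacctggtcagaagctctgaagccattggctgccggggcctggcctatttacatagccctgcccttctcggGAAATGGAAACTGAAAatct
These lie at chr19:34583369-34583528, plus strand (Ifit3), chr4:156200819-156200978, minus strand (Isg15), chr12:26456453-26456612, minus strand (Rsad2), chr5:120777660-120777819, minus strand (Oas3) and chr5:120907526-120907685, minus strand (Oas1a), and each lies inside a region of the cultured table that spans the start site. Ifit3 holds 2 matches, Isg15 holds 3 that overlap each other, Oas1a holds 2 that overlap, and Rsad2 and Oas3 hold 1 each. Gbp2 and Gbp3, which encode interferon-induced GTPases, are shown beside them because they hold the same letters and were not called.
Gbp2: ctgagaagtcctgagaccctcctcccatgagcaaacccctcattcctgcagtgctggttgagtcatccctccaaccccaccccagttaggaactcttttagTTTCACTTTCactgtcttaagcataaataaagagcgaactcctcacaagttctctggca
Gbp3: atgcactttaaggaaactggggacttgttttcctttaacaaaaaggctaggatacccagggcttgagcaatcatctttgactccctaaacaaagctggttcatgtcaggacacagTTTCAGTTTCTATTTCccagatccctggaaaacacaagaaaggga
They lie at chr3:142620503-142620662, plus strand (Gbp2) and chr3:142559884-142560043, plus strand (Gbp3). Gbp3 holds 2 overlapping matches. They lie outside the regions counted for Gbp3, the nearest of which starts at chr3:142560251, so openness at these letters was not measured there.

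Of the 43 members, 33 had a promoter entry. Over the 250 bases before the start site, 12 of these 33 (36.4%) held the ISRE letters in at least 1 entry, against 936 of 27025 genes of the table (3.46%). The GAS letters TTCNNNGAA were in 8 of 33 (24.2%), against 8.13% of all genes. The count includes Cxcl10 and Ifit1, which had no region to measure. A match is a string of letters and not a shown binding site, and a member without one says only that these letters are not in this window. Rtp4, Mx1, Oas2, Parp9, Nlrc5, Ly6a, Parp14, Mx2, Usp18 and Dhx58 had no promoter entry.

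In the cultured table, 26 of the 41 members with regions were lower in co-SHI than in SHI columns and none was higher, where 7.12% of all 17408 genes tested were called in either direction, 2.53% lower and 4.58% higher. The median log2 fold change was -0.46 over the members and -0.01 over all genes, and 35 of 41 members had a negative value. The members called include the transcription factors Irf7 and Irf9, all 5 OAS and OASL genes, the RNA editor Adar and the stem cell antigen Ly6a. The largest fold change was at Ifit3, -1.84 (SE 0.33, adjusted p = 0.00658).

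The smallest p was at Xaf1, which encodes a proapoptotic zinc finger protein. Its summed CPM was 22.99, 21.4 and 29.8 in the SHI columns and 11.8, 11.3 and 11.96 in the co-SHI columns, a log2 fold change of -1.10 (SE 0.13, adjusted p = 0.00105). Every SHI column lay above every co-SHI column, and the co-SHI columns were close to each other. Mx2 belongs to a family of interferon-induced GTPases, but RefSeq lists both Mx1 and Mx2 of this C57BL/6 assembly as transcribed pseudogenes. It stood at 45.5, 31.9 and 51.7 CPM in SHI columns and at 23.6, 23.7 and 20.1 in co-SHI columns (-0.96, SE 0.13, adjusted p = 0.00253). Oasl2, an OAS-like protein, had 47.3, 38.4 and 40.1 CPM against 26.2, 26.6 and 26.9 (-0.68, SE 0.10, adjusted p = 0.00312). For both genes the groups did not overlap, and SHI 2 was the lowest SHI column.

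Among the transcription factors, Irf9, the DNA-binding subunit of ISGF3, had 49.6, 43.1 and 46.5 CPM in SHI columns and 27.8, 31.5 and 33.7 in co-SHI columns (-0.60, SE 0.10, adjusted p = 0.00503). Irf7, which amplifies type I interferon production, had 48.97, 36.98 and 51.5 CPM against 30.4, 26.9 and 29.9 (-0.68, SE 0.11, adjusted p = 0.00513). Both genes separated the groups completely. Irf1, a factor induced chiefly by interferon gamma, had a fold change of -0.17 (adjusted p = 0.0871), which did not pass the test although its SHI columns all lay above its co-SHI columns. Irf2, which competes with Irf1 for the same sites, was at 0.00 (adjusted p = 0.984). Stat2, with a single region and 1.70 to 3.27 CPM in these 6 columns, was at 0.16 (SE 0.30).

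Ly6a was among the members that fell. Its summed level was 20.8, 14.8 and 24.5 CPM in SHI columns and 11.6, 10.8 and 9.23 CPM in co-SHI columns, from 111 to 288 counts a library, with a log2 fold change of -0.95 (SE 0.16, adjusted p = 0.00552). The groups did not overlap. Of its 3 regions 2 were called. A region 5337 bases from the gene, chr15:74989291-74989791, had 15.1, 8.94 and 16.1 CPM in SHI and 6.46, 6.55 and 6.31 in co-SHI columns (-1.06, SE 0.19, adjusted p = 0.00447). The region at the gene's end, chr15:74998700-74999339, had 3.30, 4.12 and 4.89 against 1.92, 1.26 and 1.41 CPM (-1.40, SE 0.30, adjusted p = 0.0226), and lost its call when the libraries were thinned to equal depth (-1.13, adjusted p = 0.111) and without SHI 2, SHI 3 or co-SHI 2. The third region, chr15:75019496-75020028, was at -0.27 and was not called.

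The IFIT and OAS genes encode proteins that bind viral RNA or sense double-stranded RNA, and several of them had low counts. Some have close copies beside them (Ifit3, Oas1a, the Gbp, Ifitm and Ly6 clusters), and how reads that match more than 1 copy were counted is not given in the sources used here, so their levels are less certain. Ifit3 had 6.81, 3.73 and 8.25 CPM in SHI columns and 2.73, 1.19 and 1.47 in co-SHI columns, from 21 to 97 counts a library, all from 1 region over its start site. Its lowest SHI column still lay above its highest co-SHI column. Isg15, the ubiquitin-like modifier, had 8.77, 4.39 and 9.02 CPM against 3.27, 4.48 and 4.13, also from 1 region, and fell with a fold change of -0.95 (SE 0.25, adjusted p = 0.0291). There SHI 2 lay just below the highest co-SHI column. Oas2, which like its relatives makes the activator of RNase L, also overlapped, with 10.99, 3.73 and 13.2 CPM in SHI and 3.75, 6.07 and 3.08 in co-SHI columns (-1.15). Oas1a (-0.85), Oas3 (-0.40) and Oasl1 (-0.48) were called lower with no overlap. DESeq2 did not call Oas2 (adjusted p = 0.237) or Oasl1 (adjusted p = 0.138). Ifit2, of the same family and cluster as Ifit3, was at 0.03 (adjusted p = 0.915), and Mx1 was at -0.60 (adjusted p = 0.0808).

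Of the other antiviral effectors, Rsad2 (viperin, which makes a chain-terminating nucleotide) fell by 0.61 on the log2 scale, and its neighbour Cmpk2, a nucleotide kinase of the mitochondria, was at -0.50. The exonuclease gene Isg20 (-0.52), the virus tether Bst2 (-0.41), Rtp4 (-0.41), Ifi35 (-0.53), the ADP-ribosyltransferase family genes Parp9 (-0.46) and Parp14 (-0.52) and the ubiquitin ligase Trim25 (-0.41) were also called lower. Groups overlapped at Isg20 and Cmpk2. At the RNA-sensing genes, Dhx58 (-0.50) and Adar (-0.50) were called, while Ifih1 (0.07) and Eif2ak2 (-0.14) were not. In antigen processing, the immunoproteasome genes Psmb8 (-0.60) and Psmb9 (-0.28) and the MHC class I activator Nlrc5 (-0.33) were called, and the peptide transporter Tap1 (-0.31) was not. Psmb9 lost its call with DESeq2 (adjusted p = 0.0532), with either other scaling, with the replicate block (adjusted p = 0.0669), within 10 kb, after thinning and without any library but co-SHI 3. Thinning also ended the calls of Psmb8 (adjusted p = 0.0623), Nlrc5 (adjusted p = 0.0963) and Bst2 (adjusted p = 0.137). With gene ends only, Trim25 (-0.18) and Parp14 (-0.33) were not called and Rtp4 was at 0.26. That Rtp4 value came from 1 region, which was shared with another gene.

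The remaining members did not pass the test. Usp18, which removes Isg15 from its targets, was at -0.22, Gbp3 at -0.15 and Ifitm1 at -0.06. Gbp2 (0.00) and Ifitm3 (0.00) were near 0. Sp100, a component of nuclear bodies, was at 0.17, and Ifi44 at 0.52 (adjusted p = 0.194), the most positive value of the set. Of the 10 measured members with the ISRE letters 6 were called lower, with a median of -0.40, and of the 21 without them 12 were called, with a median of -0.41, which is a similar share in both.

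**Figure D1:**
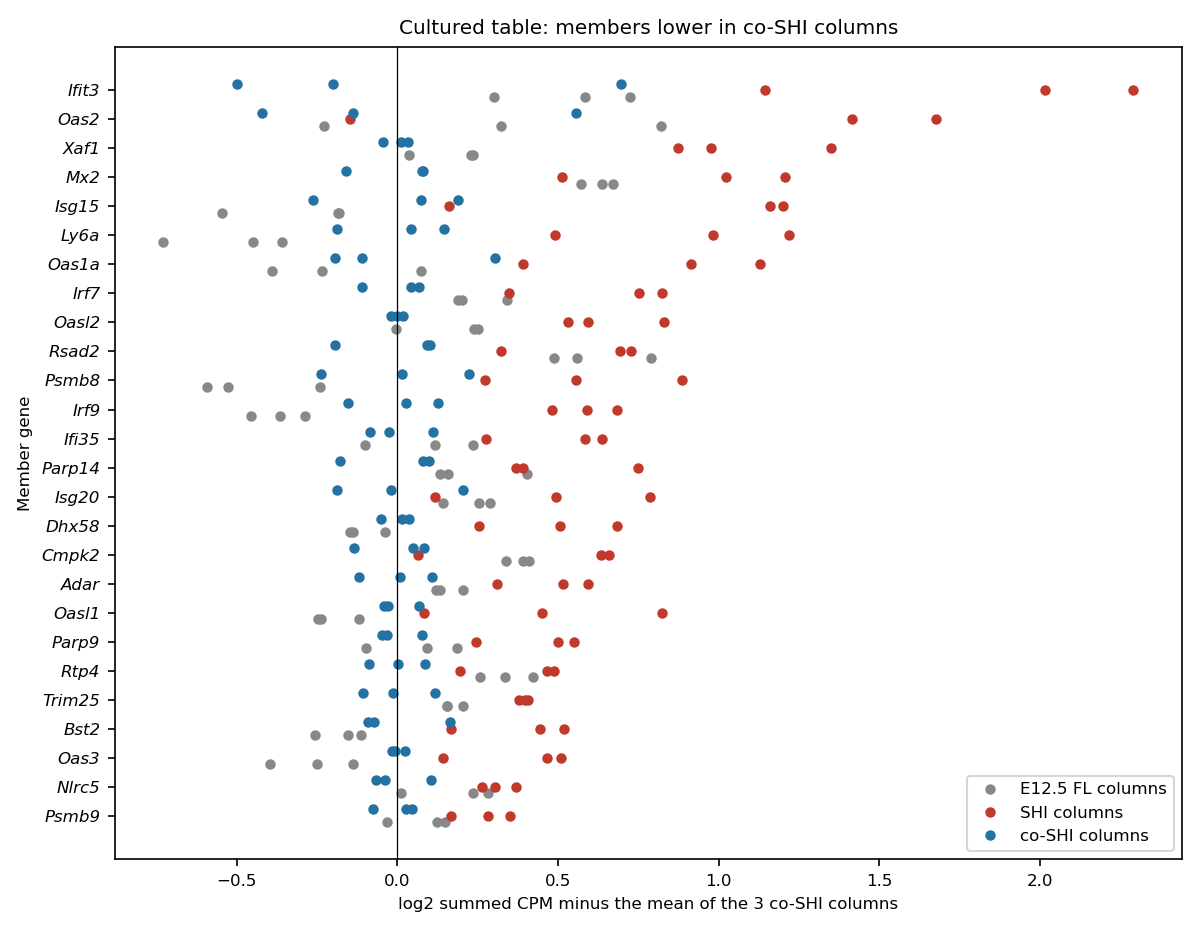
Level of the 26 members called lower in co-SHI columns, in each column of the cultured table (3 E12.5 FL, 3 SHI, 3 co-SHI), as log2 summed CPM minus the mean log2 value of the 3 co-SHI columns of that gene. SHI points lie to the right of co-SHI points with no overlap in 22 of 26 genes (24 of all 41 members, and 12.2% of all genes), and the SHI point nearest to the co-SHI points is SHI 2 in 22 of 26.

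The plot of the called members by column shows that the SHI columns were not alike. SHI 2, the shallowest library, was the lowest of the SHI columns in 22 of the 26 called members and in 35 of all 41. The share of all genes with SHI 2 lowest was not taken, so these counts have no background beside them. Whether they reflect a trait of the members or of the library was not tested. All 26 kept a negative fold change when each library was left out in turn, and 7 were called in all 6 of these fits: Ifit3, Irf7, Irf9, Ly6a, Mx2, Oasl2 and Xaf1. The number called was 9 without SHI 1, 13 without SHI 3, 11 without co-SHI 1 and 10 without co-SHI 2, and it was 19 and 26 without SHI 2 and co-SHI 3. The share of all genes called moved too, from 0.678% without co-SHI 2 to 17.606% without co-SHI 3. After thinning of the 6 libraries to the smallest, 22 members were called, all lower, with 5.641% of all genes called.

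Few markers of cell types were called between these columns. One of the 7 LSK markers was lower, which is Ly6a itself, 1 of 6 macrophage markers was higher (Adgre1), 1 of 4 endothelial markers was lower (Pecam1), and none of the plasmacytoid dendritic, hepatocyte, lymphoid, erythroid or trophoblast markers was called. Summed macrophage markers stood at 298 to 323 CPM in SHI and 335 to 341 CPM in co-SHI columns, and summed plasmacytoid dendritic markers at 240 to 258 and 253 to 261 CPM. Summed hepatocyte markers were at 106 to 107 and 93.7 to 107 CPM, and summed LSK markers at 1140 to 1210 and 1130 to 1240 CPM. The part of these levels, and of the depth of the columns, in the lower values of the members was not tested beyond the thinned fit.

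Counted by region, 21 of 233 member regions were lower and 1 was higher in co-SHI columns, where 0.561% of all 145129 regions were called, 0.332% lower and 0.229% higher. Most of the lower regions were at gene ends. Of the 55 member regions within 1 kb of a gene's end, 15 were lower, against 41 of 18107 such regions of all genes (0.226%), and their median log2 fold change was -0.50 against 0.01 over all gene-end regions. In gene bodies 4 of 84 and between genes 2 of 94 member regions were lower. Over all regions of any place the share was 0.332%, and it was not taken for gene bodies or intergenic regions alone. The 5 regions of smallest p all lay at gene ends. At Oasl2, chr5:114897228-114898026 had 14.4, 12.2 and 15.4 CPM in SHI and 3.90, 5.34 and 4.60 in co-SHI columns (-1.59, SE 0.19, adjusted p = 4.7e-06). At Mx2, chr16:97535771-97536304 had 35.3, 22.3 and 36.97 against 14.4, 13.3 and 11.5 CPM (-1.26, SE 0.15, adjusted p = 5.74e-06). In both the lowest SHI column lay well above the highest co-SHI column.

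The region that holds the Rsad2 promoter printed above, chr12:26456195-26456705, had 18.8, 12.4 and 19.1 CPM in SHI columns and 6.51, 5.09 and 6.53 in co-SHI columns (-1.48). Those at the ends of Xaf1, chr11:72301318-72301830, and Irf7, chr7:141265829-141266763, were at -1.26 and -1.08. The promoter region of Oas3, chr5:120777436-120777936, was at 10.2, 5.77 and 10.7 and 4.00, 2.62 and 2.75 CPM (-1.51), a larger fold change than that of the gene's 5 regions summed. Conversely, the Isg15 region, chr4:156200639-156201139, missed the threshold on its own (adjusted p = 0.0524). The Gbp2 promoter region, chr3:142619895-142620876, had 6.33, 8.25 and 11.02 CPM in SHI and 6.99, 7.81 and 8.83 in co-SHI columns, so that its groups overlapped. At Mx1 and Irf1, which were not called as genes, a region at the end of Mx1 (chr16:97462718-97463262, -0.92) and one inside Irf1 (chr11:53772444-53772988, -0.75) were lower. The region that was higher lay near Irf2 (chr8:46852351-46852917, 0.55), and it lost its call with DESeq2 size factors (0.54), after thinning (0.50) and without any library but co-SHI 3. Of the 22 called regions, 10 were called in each fit without 1 library, all of them lower. The count of called member regions in these fits ranged from 12 to 31. It was 12 without SHI 1 or co-SHI 2 and 14 without SHI 3 or co-SHI 1. The share of all regions called in each fit is not given beside these counts.

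**Figure D2:**
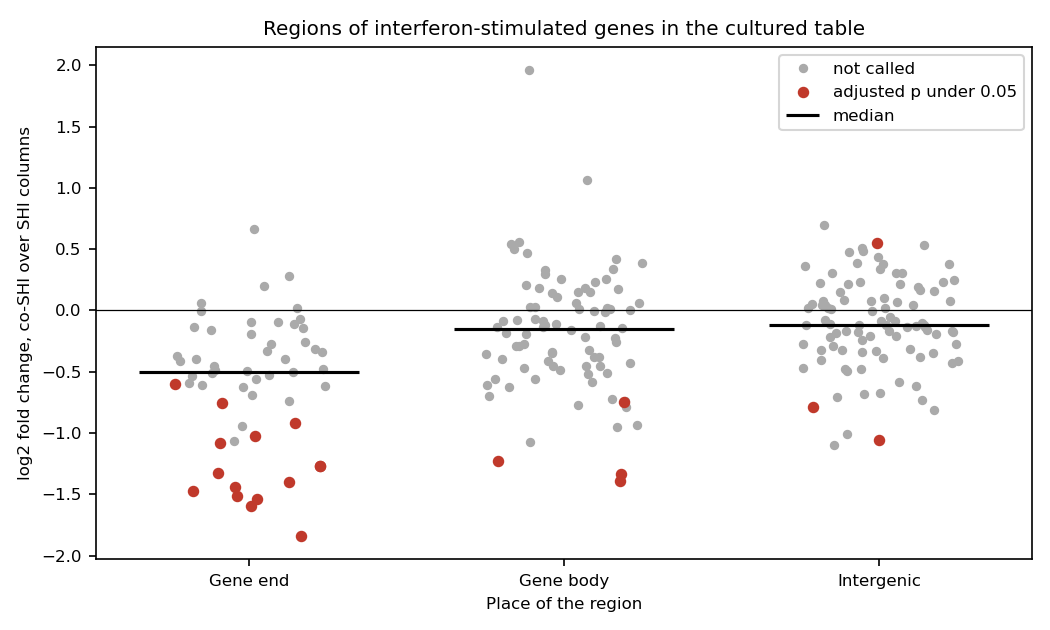
Log2 fold change of each of the 233 member regions tested, co-SHI over SHI columns, by place (within 1 kb of a gene's end, inside the gene body, between genes), with called regions in red and the median as a bar. The medians are -0.50, -0.15 and -0.12, and 15 of the 21 lower regions are at gene ends.

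The cultured table also holds columns named for the 3 uncultured E12.5 FL libraries, with 16097639 to 22061805 counts each. Their log2 levels correlated at 0.826 to 0.859 with the E12.5 FL columns of the developmental table, whichever numbers were paired, and at 0.968 to 0.973 with each other, while the E12.5 FL columns of the developmental table correlated at 0.839 to 0.872 with each other. They are shown as levels with no test. In 18 of the 26 called members all SHI columns lay above all E12.5 FL columns, and in 20 of the 41 members with regions, where 25% of all genes did so. The co-SHI columns lay above the E12.5 FL columns in 6 of the 26 called members and in 7 of all 41, where 24.3% of all genes did so. They lay below in 9 of the 26 and overlapped in 11, but no share over all genes was taken for these patterns. The 26 were chosen because SHI columns stood above co-SHI columns. Their place beside the E12.5 FL columns is therefore not independent of that call. Ifit3 was at 2.08, 2.78 and 2.53 CPM and Ly6a at 6.35, 7.71 and 8.21 CPM in the E12.5 FL columns, and Mx2 at 33.3, 34.9 and 35.7 CPM. For Ifit3 these levels overlapped the co-SHI columns, for Ly6a they lay below both groups, and for Mx2 above the co-SHI columns and inside the range of the SHI columns.

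Genes of the pathway that are not members were read from 4 lists. None of the 11 genes of the list of receptors and kinases was called between co-SHI and SHI columns, and none of the 17 sensors and adaptors. Of all genes tested, 2.53% were called lower and 4.58% higher. Of 7 brakes on cytokine signalling 2 were lower, Socs3 (-0.26) and Socs1 (-0.20), which encode feedback inhibitors of Jak kinases. Of 31 other interferon-induced genes 9 were lower and none higher, led by Slfn5 (-0.74), Lgals3bp (-0.70), H2-K1 (-0.49) and Pml (-0.37), with a list median of -0.17. These genes encode a Schlafen protein, a secreted galectin ligand, an MHC class I heavy chain and the organiser of nuclear bodies. The members' median of -0.46 was lower than that of each list (-0.13, -0.08, -0.12 and -0.17), and the median over all genes was -0.01.

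Along development members moved in both directions. Summed over all members, accessibility was 1410 to 1590 CPM in E12.5 PL, 1780 to 1810 in E12.5 FL, 1830 to 1920 in E16.5 FL, 1870 to 2120 in Perinatal BM and 2040 to 2070 in 8w BM. Between E12.5 FL and E12.5 PL, 16 of 40 members were higher in FL and 4 were lower, where 49.4% of all genes were called in either direction, 25.9% higher and 23.5% lower. The members' share called in either direction, 50%, is near that background. More of them were higher and fewer lower than over all genes, and this split was not tested. The median was 0.29 over members and -0.01 over all genes.

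The clearest of the higher members was Sp100, at 111, 168 and 150.3 CPM in FL and 53.9, 60.8 and 55.4 CPM in PL (1.33, SE 0.12, adjusted p = 7.58e-12). Oas3 had 42.02, 36.8 and 47.4 CPM in FL and 5.62, 9.32 and 11.8 in PL, the largest difference in this direction (2.23, SE 0.20, adjusted p = 1.13e-11). Oasl1 had 166, 133 and 133 against 70.95, 65.6 and 77.7 CPM (1.01), and Rtp4 30.8, 39.4 and 31.4 against 12.98, 17.5 and 16.7 CPM (1.10). None of these 4 genes overlapped between the groups. In the opposite direction, the ubiquitin ligase Trim25 had 46.4, 49.6 and 38.1 CPM in FL and 87.6, 98.8 and 106 in PL (-1.12, SE 0.15, adjusted p = 4.57e-08). Xaf1 had 5.37, 5.78 and 11.2 against 21.4, 46.8 and 28.04 CPM (-2.11, SE 0.31, adjusted p = 5.7e-07). Ifit3 (0.489, 1.57 and 3.73 against 6.49, 5.44 and 9.42 CPM, -1.89) and Rsad2 (-0.69) were the other lower members. For Rsad2 a PL library at 28.5 CPM lay inside the FL range, so its groups overlapped.

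The other members higher in FL were Irf2 (0.55), Ifitm3 (0.69), Nlrc5 (0.67), Dhx58 (0.94), Ifit2 (0.74), Psmb9 (0.89), Ifih1 (0.47), Ifi44 (1.20), Gbp2 (0.65), Mx1 (1.29), Parp9 (0.53) and Oasl2 (0.58). These genes include a receptor for viral RNA (Ifih1), a membrane protein that blocks viral entry (Ifitm3) and an immunoproteasome subunit (Psmb9). Ifih1, Ifi44, Gbp2 and Mx1 lost the call without E12.5 FL 2, Psmb9, Parp9 and Oasl2 without E12.5 PL 1, and Ifi44 also without E12.5 PL 2. Ly6a had 3.42, 0.787 and 1.86 CPM in FL and 4.97, 4.08 and 3.85 in PL, from 3 to 23 counts, and did not pass (-1.06, adjusted p = 0.107), though it did without E12.5 FL 1 (-1.66). With only the regions at gene ends 13 of 36 members were called, where 34.304% of all genes were, Ifitm3 (-0.01) and Oasl2 (-0.32) changed sign, and Sp100 was at 0.54 and Trim25 at -0.02 with no call.

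Other features of these libraries moved with the comparison. Gene-end regions took 42.6% to 45.8% of counts in PL and 35.5% to 37.7% in FL, and the median gene-end region of all genes was at -0.46. In FL, 5 of 6 macrophage markers were higher (224 to 269 CPM summed, against 88.9 to 131), as were 3 of 4 plasmacytoid dendritic markers (193 to 227 against 108 to 141, Irf8 being on that list too), while 4 of 4 endothelial markers (294 to 325 against 390 to 609) and 3 of 5 trophoblast markers (118 to 125 against 180 to 257) were lower. Of 7 LSK markers 4 were higher and 2 lower (942 to 1000 CPM summed, against 602 to 671). Of 5 hepatocyte markers tested 2 were higher and 1 was lower. Higher too were 2 of 4 erythroid markers and 1 of 3 lymphoid markers tested. Of all genes 49.4% were called. The part of these features in the members' differences was not tested. Of the pathway lists, 2 of 11 receptors and kinases were higher and 3 lower, as were 4 and 3 of 17 sensors, 1 and 4 of 7 brakes and 10 and 4 of 31 other interferon-induced genes, with Socs3 (-1.10), Samd9l (1.64), Ptpn6 (1.00) and Ifnar2 (0.88) of smallest p.

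By region, 46 of 171 were higher and 34 lower in FL than in PL, where 49.4% of all regions were called, 23.1% higher and 26.3% lower. This split depended on the scaling: with DESeq2 size factors 35 were higher and 46 lower, and with total counts 54 and 20, while the median of all regions moved from 0.09 to -0.12 and 0.38. The 5 member regions of smallest p were all higher in FL. At Ifitm3, an intergenic region at chr7:140990089-140991596 had 24.5, 22.2 and 25.2 CPM in FL and 5.05, 3.83 and 6.25 in PL (2.25, SE 0.24, adjusted p = 6.06e-11). The others were a body region of Oas3 at chr5:120775528-120776066 (2.42), a pair of intergenic regions of Sp100 at chr1:85751421-85751964 (1.75) and chr1:85735652-85736184 (1.57), and one of Irf2 at chr8:46852276-46852933 (2.17).

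**Figure D3:**
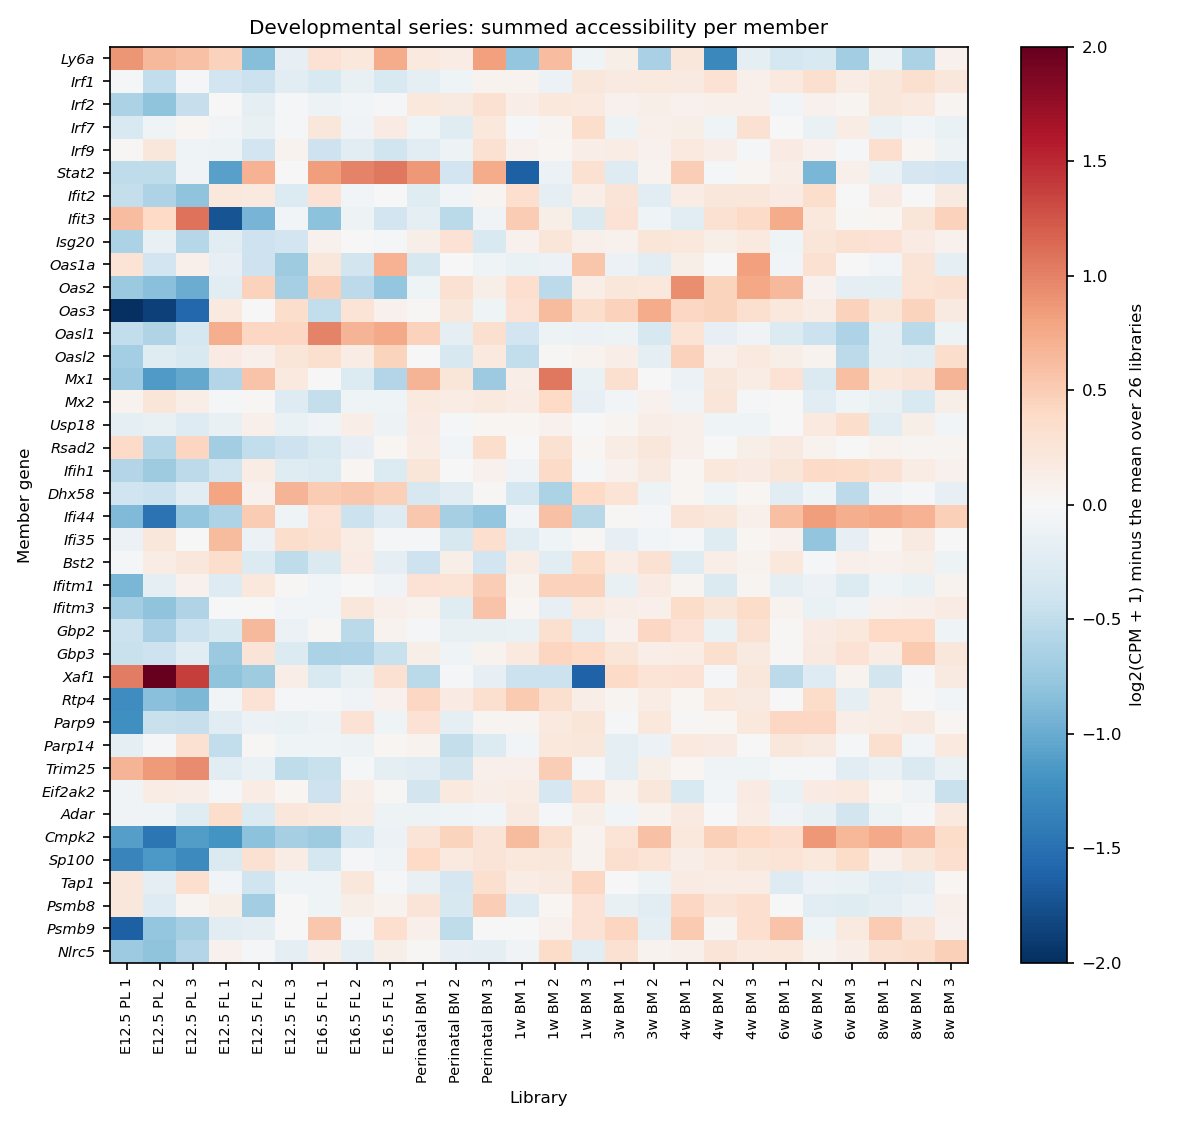
Summed accessibility of the 40 members with regions in each of the 26 libraries of the developmental series, as log2(CPM + 1) minus the gene's mean over all libraries, on a colour scale that ends at -2 and 2. The 3 E12.5 PL libraries stand out as low for Oas3 and Sp100 and high for Xaf1 and Trim25, and rows of low counts such as Ly6a, Stat2 and Ifit3 vary between libraries of a group.

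Between E16.5 and E12.5 FL no member passed the test, and 0% of all genes did. At an unadjusted p under 0.05 there were 6 members. The 4 of smallest p were Cmpk2 (0.53, adjusted p = 0.533), Isg20 (0.35), Rsad2 (0.41) and Stat2 (1.13), and Ly6a was at 0.71. DESeq2 called no member either. By region none was called, with 0.00101% of all regions called and 8 member regions at an unadjusted p under 0.05. Without E16.5 FL 1 there was 1.

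At the move from E16.5 FL to Perinatal BM, 4 members were higher and 2 lower, where 10% of all genes were called higher and 6.46% lower. Cmpk2 had 73.3, 83.7 and 73.4 CPM in Perinatal BM and 36.9, 48.05 and 56.5 in E16.5 FL (0.70, SE 0.16, adjusted p = 0.00387). Sp100 had 180.1, 156 and 163 against 106, 133 and 129 CPM (0.43), Irf2 332, 325 and 353 against 267, 276 and 281 CPM (0.29) and Gbp3 30.7, 26.5 and 29.6 against 17.7, 18.02 and 20.4 CPM (0.62). In each of these 4 genes all marrow libraries lay above all liver libraries. Oasl1 had 137, 88.5 and 125 CPM in marrow and 199, 160.2 and 170.4 in liver (-0.60, SE 0.14, adjusted p = 0.00378), and Dhx58 20.7, 22.4 and 26.5 against 37.5, 38.5 and 36.7 CPM (-0.69), both with every marrow library below. Ly6a was at -0.03. Oasl1 encodes an OAS-like protein that restrains Irf7 translation, Dhx58 a regulator of the RNA sensors and Gbp3 a GTPase. With gene ends only Sp100 (adjusted p = 0.403), Irf2 (adjusted p = 0.171) and Gbp3 (adjusted p = 0.0555) were not called, and Sp100 was not called within 10 kb either (0.27, adjusted p = 0.186). Without E16.5 FL 1 the count fell to 1 and without Perinatal BM 1 to 2, as the share of all genes called fell to 3.95% and 10.989%.

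Of the pathway lists, 3 receptors and kinases were higher at this step and 1 was lower, of 11, among them Ifngr1 (0.48) and Ifngr2 (-0.54), the chains of the interferon gamma receptor. The Ifngr2 value turned to 0.23 with gene ends only and to 0.27 within 10 kb. Of the others, 3 of 17 sensors, 1 of 7 brakes (Trim24, 0.56) and 3 of 31 other interferon-induced genes were higher, with Ifi27 at 1.26. Over all genes 10% were higher and 6.46% lower at this step. Of the marker lists, 3 of 7 LSK markers were higher, with a summed level of 1000 to 1140 CPM against 893 to 924. One of 6 macrophage markers (C1qa) and 1 of 4 endothelial markers (Tek) were lower and 1 of 4 plasmacytoid dendritic markers (Ccr9) was higher. The part of these levels in the members' differences was not tested.

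By region 12 were higher and 2 lower of 171, where 7.99% of all regions were called, 6.63% higher and 1.37% lower. With DESeq2 size factors in place of TMM this became 10 higher and 4 lower, and with total counts 6 and 5, the median of all regions moving from -0.04 to -0.105 and -0.229. Without E16.5 FL 1 the count of 14 fell to 7. The regions of smallest p were an intergenic one of Irf1 at chr11:53794750-53795666 (1.04, SE 0.17, adjusted p = 6.17e-05), one of Sp100 at chr1:85751421-85751964 (0.90), one of Cmpk2 at chr12:26524763-26525441 (1.12), one in the body of Rtp4 at chr16:23609609-23610143 (1.32) and one of Irf2 at chr8:46851439-46852070 (0.84). Rtp4 encodes a chaperone for membrane receptors, and the annotation gives it a span of 94004 bases. The region named here lay 4347 bases from an end of that span, and so was counted as gene body. It occupies the same place as the cultured region chr16:23609613-23610140, which was lower in co-SHI columns (-1.23).

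After birth few members moved. Between 1w BM and Perinatal BM no member was called, with 0.252% of all genes called and 6 members at an unadjusted p under 0.05. The smallest p values were at Oasl1 (-0.42, adjusted p = 0.309), Trim25 (0.33), Parp14 (0.37) and Oas3 (0.36), and Ly6a was at -0.68. No region was called (0.182% of all regions called), with 16 at an unadjusted p under 0.05. Over the 5 marrow groups from 1 to 8 weeks no member was called by edgeR's test of any difference, with 1.12% of all genes called and 5 members at an unadjusted p under 0.05, of which the 4 smallest were Xaf1, Tap1, Ifi44 and Ifitm1. DESeq2 called 1 there, Tap1 (adjusted p = 0.0283). The single member region called in that test (1.19% of all regions) was at Irf2, chr8:46869326-46869939, which had 8.04, 18.5 and 9.36 CPM in 1w BM and 28.5, 32.1 and 22.1 in 8w BM. It lost the call without 1w BM 1, 1w BM 3, 8w BM 1 or 8w BM 2. Gbp6 was the only pathway gene called over these groups.

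Between 8w BM and Perinatal BM, Nlrc5 was higher (66.4, 68.99 and 75.3 against 54.7, 47.8 and 46.6 CPM, 0.50, SE 0.14, adjusted p = 0.0232) and Oasl1 was lower (86.7, 68.2 and 92.6 against 137, 88.5 and 125 CPM, -0.50, SE 0.14, adjusted p = 0.0321), where 4.69% of all genes were called, 1.84% higher and 2.85% lower. Nlrc5 was not called with gene ends only (0.45, adjusted p = 0.291). It separated the groups and Oasl1 did not, since an 8w library lay above the lowest perinatal one. Without Perinatal BM 3 or 8w BM 2 no member was called, and without Perinatal BM 2, 8w BM 1 or 8w BM 3 there was 1. Ly6a was at -0.87 and was not called. By region 5 were higher and none lower (2.86% of all regions called, 1.36% higher and 1.5% lower): that of Irf2 just described (1.23), one of Irf1 at chr11:53763488-53764277 (0.82), one of Ifi44 at chr3:151742171-151742752 (1.73), one of Parp14 at chr16:35869001-35869516 (1.12) and one of Nlrc5 at chr8:94528073-94528623 (1.27). The count was 1 without 8w BM 2, 2 without Perinatal BM 3 or 8w BM 1 and 3 without Perinatal BM 1 or 8w BM 3. Among pathway genes Tbk1, a kinase that activates Irf3, was lower (-0.71), as it was at 1 week (-0.55), and Zbp1, a nucleic acid sensor, was higher (0.84). In 8w BM 2 of 4 plasmacytoid dendritic markers (Ccr9 and Spib), 1 of 5 hepatocyte markers tested (Alb) and 1 of 3 lymphoid markers tested (Cd79a) were lower and 1 of 6 macrophage markers (Cd68) was higher, and their part in these differences was not tested.

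From E12.5 FL to 8w BM, 8 members were higher and 2 lower, where 29.9% of all genes were called, 15.5% higher and 14.4% lower. This comparison shares its libraries with those above. Cmpk2 stood furthest apart, at 105, 94.9 and 79.3 CPM in 8w BM and 26.1, 34.1 and 38.1 CPM in E12.5 FL (1.51, SE 0.17, adjusted p = 1.33e-08). Irf1 had 235, 249.8 and 233 against 153, 148 and 172 CPM (0.60, SE 0.11, adjusted p = 5.23e-05), Isg20 57.8, 53.02 and 50.1 against 40.8, 35.2 and 35.97 CPM (0.52) and Rsad2 45.2, 44.96 and 44.8 against 26.1, 30.2 and 32.2 CPM (0.61). All 8w libraries lay above all E12.5 FL libraries at these 4 genes. Nlrc5 (0.43), Gbp3 (0.53), Ifit3 (1.34) and Irf2 (0.23) were also higher, with overlap between the groups at Gbp3. Irf2 lost its call with total counts (adjusted p = 0.0815), within 10 kb (0.14, adjusted p = 0.232), with the compared groups alone (adjusted p = 0.078) and in 5 of 6 fits without 1 library. Gbp3 (adjusted p = 0.0763) and Ifit3 (adjusted p = 0.0682) lost theirs with the compared groups alone, and Nlrc5 within 10 kb (adjusted p = 0.0762). Ifit3, with 2, 6 and 14 counts in E12.5 FL, also lost its call without E12.5 FL 1, E12.5 FL 2, 8w BM 2 or 8w BM 3. So did Gbp3 without E12.5 FL 1, E12.5 FL 3 or 8w BM 2, and Nlrc5 without E12.5 FL 3 or 8w BM 3. Oasl1 (86.7, 68.2 and 92.6 against 166, 133 and 133 CPM, -0.81, SE 0.14, adjusted p = 3.97e-05) and Dhx58 (-0.66) were lower, the latter uncalled with gene ends only (-0.52, adjusted p = 0.144) and without E12.5 FL 1. Ly6a was at -0.19. The count fell to 6 without E12.5 FL 1. Of the marker lists, 1 of 5 hepatocyte markers tested was higher (Trf) and 2 were lower (Alb and Ttr), Csf1r was higher of 6 macrophage markers, Flt3 of 7 LSK markers and Siglech of 4 plasmacytoid dendritic markers, and Ccr9 was lower. Of 4 endothelial markers 2 were lower, and of 5 trophoblast markers 1 was higher and 2 were lower. Their part in the members' differences was not tested.

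Between E16.5 FL and Perinatal BM the levels of Cmpk2 and Oasl1 went in opposite directions, Cmpk2 up and Oasl1 down. Neither was called over the marrow groups from 1 to 8 weeks. Cmpk2 was at 27.9, 21.8 and 27.6 CPM in E12.5 PL and at 77.5, 112 and 97.9 CPM in 6w BM, with the means of E12.5 FL, E16.5 FL and Perinatal BM between. Its intergenic region at chr12:26524763-26525441 had 2.17, 2.25 and 2.31 CPM in E12.5 PL, 3.40, 5.62 and 6.42 in E12.5 FL, 5.89, 13.8 and 17.4 in E16.5 FL, 24.1, 27.9 and 28.1 in Perinatal BM and 40.5, 38.1 and 28.5 in 8w BM, and had the smallest p of the member regions from E12.5 FL to 8w BM (2.80, SE 0.28, adjusted p = 2.66e-11). The mean of Oasl1 was highest in E16.5 FL, and its levels of 82.4, 74.2 and 64.95 CPM in 6w BM overlapped those in E12.5 PL (70.95, 65.6 and 77.7).

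**Figure D4:**
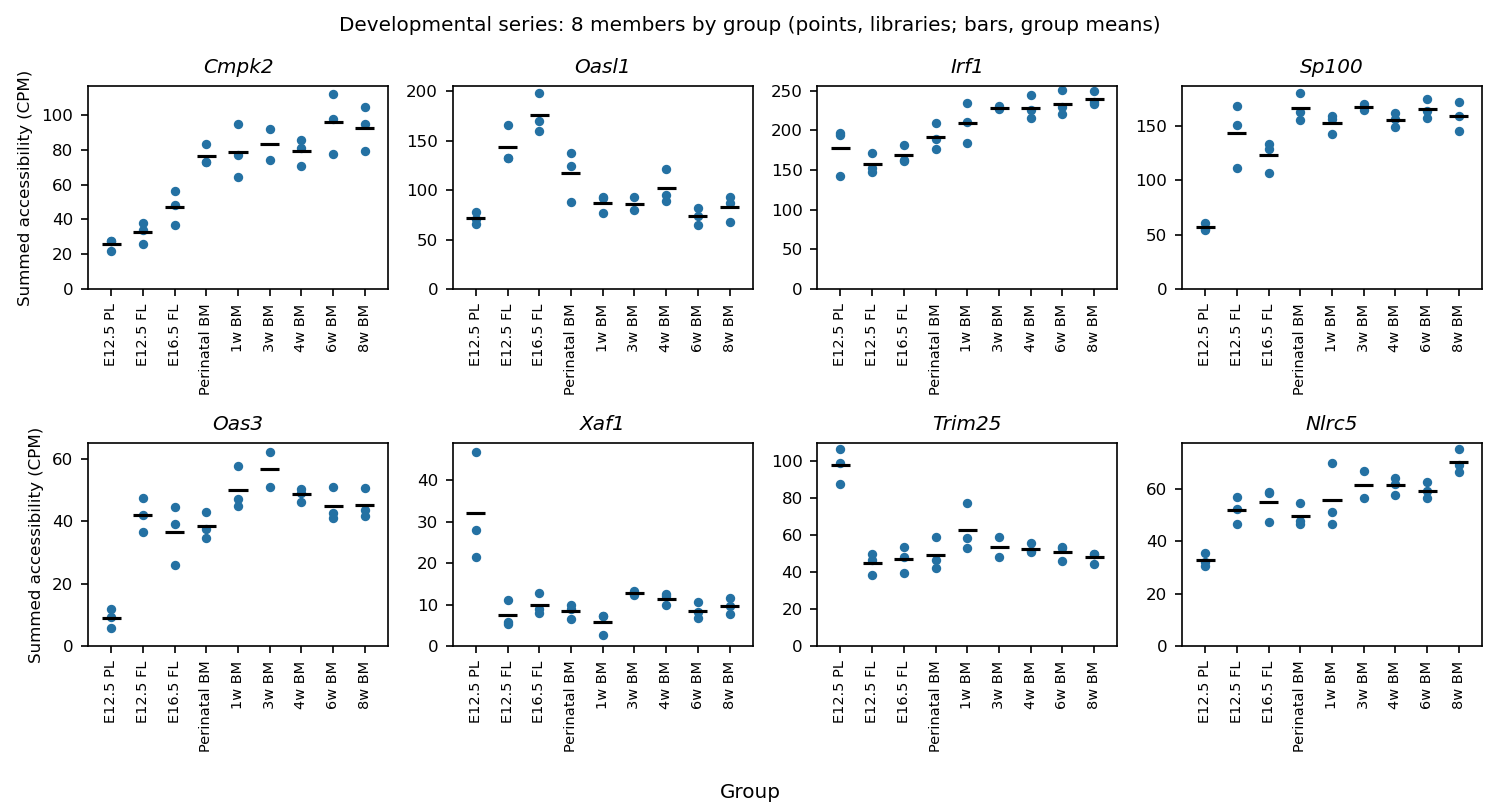
Summed CPM of 8 members in every library of the 9 developmental groups (points) with group means (bars), on a linear axis from 0. The means of Cmpk2 and Irf1 are highest in the 6w and 8w marrow groups, that of Oasl1 is highest in E16.5 FL, the means of Oas3 and Sp100 are lowest in E12.5 PL, and those of Xaf1 and Trim25 are highest there.

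By region 28 of 171 were higher and 4 lower in 8w BM than in E12.5 FL, where 16.3% of all regions were called, 10.6% higher and 5.77% lower. With DESeq2 size factors the split was 20 and 4, and with total counts 16 and 6, the median of all regions moving from -0.06 to -0.14 and -0.25. The count was 19 without E12.5 FL 2, 20 without 8w BM 1 and 15 without 8w BM 2. Beside the Cmpk2 region, the smallest p values were at the Irf2 region chr8:46869326-46869939 (2.50), the Irf1 region chr11:53763488-53764277 (1.32), the end of Cmpk2 at chr12:26469033-26469588 (1.38) and the end of Nlrc5 at chr8:94433965-94434597 (1.30). Of the pathway lists, 6 of 11 receptors and kinases and 5 of 7 brakes were higher from E12.5 FL to 8w BM, among them the brake Cish (0.83). Of 17 sensors and adaptors 3 were higher, and of 31 other interferon-induced genes 7 were higher and 1 was lower. Of all genes 15.5% were higher and 14.4% lower. Ifngr2 was lower (-0.67) over all its regions and at 0.44 and 0.25, uncalled, over gene ends and within 10 kb. Zbp1 (1.03) and Ifi27 (1.70) were higher.

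Over all 9 groups together 26 of 40 members were called, where 71.8% of all genes were, and 104 of 171 member regions (64.4% of all regions called). The smallest p values were at Cmpk2, Sp100, Oas3 and Oasl1, and the rest were Irf2, Xaf1, Trim25, Rtp4, Nlrc5, Irf1, Ifitm3, Ifih1, Gbp3, Parp9, Psmb9, Dhx58, Ifi44, Isg20, Ifit2, Rsad2, Ifitm1, Ifit3, Oas2, Gbp2, Mx1 and Oasl2. Ly6a, with 2 to 23 counts a library in its single region, did not pass (adjusted p = 0.0982). Per kb of assigned region, Irf9 had the highest mean CPM of the members in 8w BM (58.1 CPM per kb), followed by Gbp3 (41.3) and Cmpk2 (38.5), and Ly6a (3.67) and Stat2 (3.69) the lowest.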

How the data were processed

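ATAC-seq libraries were compared from the count tables the authors deposited. Each value is a raw read count in a region called over the libraries of its table, and the developmental and the cultured table have separate regions. The peak lists the authors deposited, 1 per library, give a fold enrichment per peak, which was used only to compare lists with count columns. Per the submitters' processing notes, Trim Galore, MACS2, deepTools, DiffBind and HOMER were used with build mm10. The aligner and the versions are not given in the sources used here. Columns of the cultured table that are named for the E12.5 FL libraries entered no test.

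Regions were assigned with RefSeq gene spans (GRCm38.p6), and counts were summed per gene. Fits used edgeR 4.0.16 (R 4.3.3): filterByExpr with a minimum count of 10, TMM factors and the quasi-likelihood F test, with Benjamini-Hochberg adjustment over all genes or all regions of the table and a threshold of 0.05. The 26 developmental libraries shared 1 fit, as did the 6 cultured ones. A fold change is the log2 ratio of fitted group levels. Named in each comparison are all called members, Ly6a, up to 5 called regions and up to 4 called pathway genes of smallest p. The 4 members of smallest p in each direction are given per library. The members and the gene and marker lists were chosen with earlier results of these data known. Alternatives were DESeq2 1.42.0, other size factors, no filter, other region sets, the compared groups alone, a replicate block and leaving out each library. Thinning of the cultured libraries to the smallest total was added after the data were seen. On simulated counts the fit recovered 93% of genes changed by 1 on the log2 scale and 76% of those changed by 0.5 between co-SHI and SHI columns, and 61.6% and 18% between Perinatal BM and E16.5 FL. Precision is limited by depth, with totals of 2845113 to 22061805 counts a column, and reads are not marked as separate molecules.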

Additional observations from a re-analysis of the deposited data

How the results depend on the processing

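Counts of called member genes stayed within 1.5 times the main count under most alternatives that kept all libraries. With only the regions at gene ends, 13 in place of 20 were called between E12.5 FL and E12.5 PL and 1 in place of 2 between 8w BM and Perinatal BM. Among the 1w to 8w BM groups, where edgeR's quasi-likelihood test called 0, DESeq2 called 1, and a fit of the compared groups alone called 1 gene, and 2 regions in place of 1. Among called values, signs turned in 8 cases. With gene ends only these were Ifitm3 (-0.01), Oasl2 (-0.32) and Ifnar2 (-0.35) between E12.5 FL and E12.5 PL, and Rtp4 (0.26) between co-SHI and SHI columns. The others were Ifngr2, with gene ends only or with regions within 10 kb. Its values were 0.23 and 0.27 between Perinatal BM and E16.5 FL and 0.44 and 0.25 between 8w BM and E12.5 FL. These alternatives sum fewer regions per gene, and beyond that the cause was not tested. Leaving out 1 library at a time gave 17 to 23 called members in the comparison of E12.5 FL with PL, 1 to 6 for Perinatal BM against E16.5 FL, 0 to 2 for 8w BM against Perinatal BM, 6 to 10 for 8w BM against E12.5 FL, 20 to 28 over all groups and 9 to 26 for co-SHI against SHI columns. It gave 0 for E16.5 FL against E12.5 FL, for 1w BM against Perinatal BM and over 1w to 8w BM. For regions the ranges were 61 to 74, 7 to 15, 1 to 4, 15 to 30, 100 to 108 and 12 to 31 in the same order, then 0 to 1, 0 and 0 to 1. The replicate numbers did not pair the samples (correlations of deviations from -0.0319 to 0.151), and with the replicate block 25 members were called between co-SHI and SHI columns, 20 between E12.5 FL and E12.5 PL, 6 between Perinatal BM and E16.5 FL and 11 between 8w BM and E12.5 FL. Of the values of single genes and regions under alternatives, 2888 kept their call or lack of one, 275 lost the call, 3 gained it and 8 changed sign. A change of sign was counted only where the main or the alternative value was called. The tests of any difference between groups have no direction, so for them only the call was compared. Depth limits the precision of low members: Ly6a had 2 to 23 counts in each developmental library.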
